A study of Drosophila melanogaster with 12 samples.

Results

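Whole female Drosophila melanogaster of the Oregon strain were fed for 3 days on medium made up with both cisplatin and titanium dioxide (TiO2) nanoparticles, or with cisplatin alone, and the comparison of these 2 groups measured what the nanoparticles added in flies that already ate the drug. Each group had 3 RNA sequencing libraries, so 6 of the 12 libraries in the series carry the comparison; the other groups, 3 libraries of flies fed TiO2 alone and 3 of untreated flies, entered the fit for their spread and serve below to set the effect of TiO2 without cisplatin beside it. The flies were kept at 25 °C, and medium for the controls held the same yeast, water and green dye without either agent. The dose of each agent is labelled as 50 mg per ml in the sample titles and as 50 µg per ml in the feeding protocol, so its unit is not certain. The labels do not say how many flies went into a library or whether libraries came from separate cultures, so the p-values measure the spread between these libraries, which may be technical.

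Cisplatin is a platinum drug that crosslinks DNA, and TiO2 nanoparticles are a mineral powder used as a white pigment. Both were eaten here, so the midgut, which makes the proteases and carbohydrases that digest food, meets them first. The fat body, the counterpart of liver and adipose tissue, stores nutrients, makes yolk and immune peptides and signals the fed state to the brain. In a whole female the ovary supplies a large share of the RNA. In such bulk samples fewer cells of a type and less RNA per cell cannot be told apart.

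The 6 libraries held between 33223336 and 46694769 counted reads, and 3 reads correspond to between 0.0649 and 0.0911 counts per 1000000 (CPM) in them. The 3 cisplatin libraries lay close together, with a median absolute difference per gene of 0.14 to 0.16 on the log2 scale between any pair. Replicates 1 and 3 of the combination differed from each other by a median of 0.31 and from the cisplatin libraries by 0.18 to 0.27. Replicate 2 of the combination stood apart, with medians of 0.84 to 1.13 against the other combination libraries and 1.00 to 1.04 against the cisplatin libraries, and 42.2% to 55.1% of genes differed more than 2-fold between it and another of the 5 libraries. It also went against the label of female flies. Of 66 testis, accessory gland and dosage compensation genes, 58 were too low in most libraries to be tested, and these summed to 2806 CPM in combination replicate 2, against at most 3.83 CPM in the other combination libraries and 0.668 CPM in the cisplatin libraries. The testis tubulin betaTub85D had 0.216, 235 and 0.503 CPM in combination replicates 1 to 3, against 0.259, 0.304 and 0.273 CPM in the cisplatin libraries. Y-linked kl-5, a dynein chain of sperm, had 9.89 CPM in that library and 0 reads in the other 11. Counts of genes and list medians are therefore given for 3 against 3 libraries and, beside them, without combination replicate 2, for 2 against 3, as are the fold changes of many of the genes named.

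No gene passed edgeR's quasi-likelihood test at a Benjamini-Hochberg adjusted p of 0.05, among 11060 genes tested (0%), and the smallest adjusted p was 0.334. At an edgeR p under 0.05 without adjustment stood 1592 genes (14.4%): the combination was higher for 1480 (13.4%) and lower for 112 (1.01%). Without combination replicate 2 the count was again 0 of 11100 (0%), with a smallest edgeR adjusted p of 0.114, and 241 genes (2.17%) reached that unadjusted level, 142 of them higher (1.28%) and 99 lower (0.892%). Of the 1480 genes higher with every library, 122 were still higher at that level without replicate 2, and replicate 2 was the highest combination library for 1447 of them (97.8%). Of the 112 lower genes, 43 were still lower. Because no gene passed, the genes below are described by their levels, and "higher" or "lower" is a direction with its error and not a call.

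DESeq2, run as an alternative, called 36 genes (0.325%), 29 higher (0.262%) and 7 lower (0.0633%). For 19 of the 29, replicate 2 was at least 2-fold above both other combination libraries. Without that library DESeq2 called 7 genes (0.0631%). Nmdmc, CG9626 and Adgf-D were higher (0.027%), and fit, Cubn2, Amnionless and Jon65Aii were lower (0.036%). All of these but Adgf-D and Jon65Aii were also called with every library, which makes 5 genes called both ways.

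Folate and purine metabolism held the gene with the smallest p among those higher. One-carbon enzymes move single carbons on folate between serine, glycine and the purine ring, and purine synthesis uses them to build adenine and guanine nucleotides. Nmdmc, the mitochondrial methylenetetrahydrofolate dehydrogenase and cyclohydrolase (chromosome 3R, 9042508 to 9050555, minus strand, BDGP6), had 128, 150 and 111 CPM in the combination libraries, against 60.8, 68.2 and 47.1 CPM in the cisplatin libraries. Every combination library was above every cisplatin library, and the one with male transcripts was the highest. The means were 130 ± 19.6 and 58.7 ± 10.7 CPM (SD, n = 3 each), a log2 fold change of 1.14 (SE 0.19) and an edgeR adjusted p of 0.334. Without replicate 2 the change was 1.03 (SE 0.19) with an edgeR adjusted p of 1, and DESeq2 gave adjusted p-values of 4.21e-05 with that library and 0.00179 without it. An exon of Mst85C overlaps Nmdmc on the other strand, and whether the counting used strand is not given in the sources used here.

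Around it, the glycine cleavage enzyme CG3999 had 85.1, 117 and 95.4 CPM with TiO2 and cisplatin, against 51.7, 66.0 and 52.4 CPM with cisplatin. Sarcosine dehydrogenase, Sardh, had 37.1, 36.0 and 46.0 CPM, against 25.4, 20.5 and 21.5 CPM, a change of 0.82 (SE 0.27) with replicate 2 and 0.88 without it. Serine hydroxymethyltransferase, Shmt, had 368, 466 and 411 CPM, against 344, 333 and 333 CPM. All 3 genes separated the groups, Shmt by a narrow margin. The trifunctional folate enzyme pug separated them only when replicate 2 was left out, with 578, 222 and 554 CPM against 348, 345 and 321 CPM. The methyl-donor enzyme Bhmt went the other way, with 66.9, 67.6 and 69.9 CPM against 98.6, 85.2 and 75.3 CPM. Over the list of 22 folate and one-carbon genes, all tested, 4 lay above every cisplatin library and 2 below, and the median log2 fold change was 0.21, or 0.06 without replicate 2. For all genes tested those shares were 7.57% above and 7.82% below, and the median was -0.04, or 0.01 without replicate 2. Without replicate 2, 5 of the 22 lay above every cisplatin library and 4 below, beside 10.5% and 13.2% of all genes.

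In purine metabolism, CG16758, a purine nucleoside phosphorylase, had 245, 270 and 242 CPM in the combination, against 127, 152 and 133 CPM with cisplatin. The groups were far apart relative to their spread, 252 ± 15.3 and 137 ± 13.2 CPM (SD, n = 3 each). The log2 fold change was 0.88 (SE 0.21) with every library and 0.83 (SE 0.23) without replicate 2, and the edgeR adjusted p-values were 0.334 and 1. Prat2, an amidophosphoribosyltransferase at the entry to the pathway, had 185, 183 and 233 CPM against 83.5, 129 and 78.3 CPM. Paics, a later step, had 332, 402 and 353 CPM against 261, 256 and 266 CPM. CG11089, which makes inosine monophosphate, had 401, 389 and 342 CPM against 296, 284 and 282 CPM. None of these ranges met. The serine-making phosphatase aay was highest in replicate 2, with 191, 341 and 200 CPM against 140, 135 and 146 CPM, and its change was 0.80 (SE 0.23), or 0.48 without that library. Prat, the other amidophosphoribosyltransferase, did not go with Prat2 and had 85.5, 38.5 and 74.8 CPM against 94.4, 85.5 and 81.6 CPM. Of 18 purine and serine genes tested out of 19, 7 lay above every cisplatin library and 2, ras and Ent2, below every one, with a median of 0.26. Without replicate 2, 10 lay above and 2 below, beside 10.5% and 13.2% of all genes in that fit, and the median was 0.20. Adgf-D, an adenosine deaminase, had 43.2, 19.6 and 37.7 CPM against 21.9, 18.5 and 20.7 CPM, so replicate 2 sat at the cisplatin level. Its change was 0.99 (SE 0.21) without that library and 0.72 with it.

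**Figure D1:**
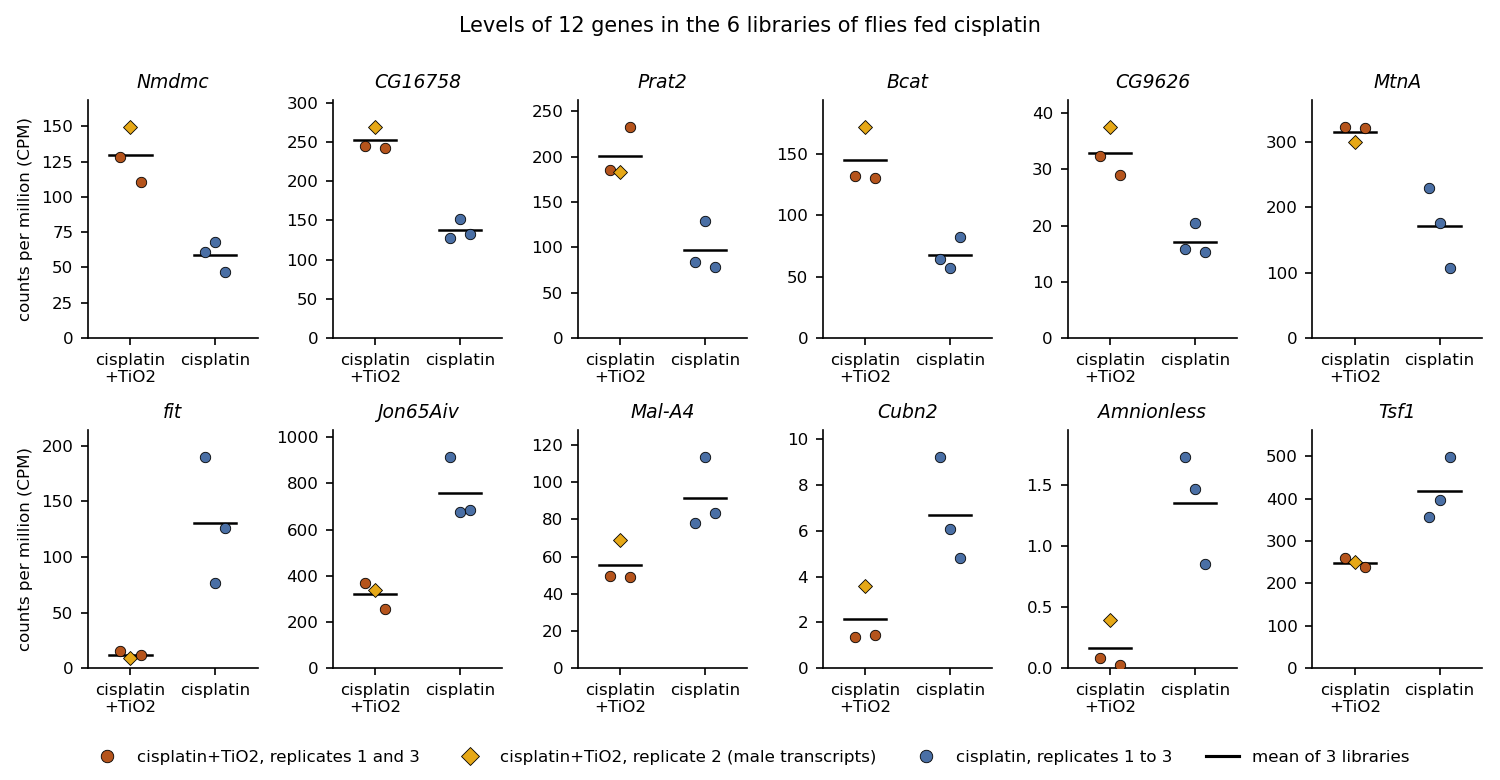
CPM of 12 genes (vertical axes, linear from 0) in each combination library at the left of a panel and each cisplatin library at the right; diamonds mark combination replicate 2 and bars the group means. In all 12 panels the 3 combination points and the 3 cisplatin points do not overlap, and the diamond lies on the same side of the cisplatin points as the other combination points. Most of these genes were chosen for ranges that do not overlap, or named after their values were seen, so this separation follows from the choice.

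Several further genes were higher in all 3 combination libraries. Bcat, the branched-chain amino acid aminotransferase, had 132, 172 and 130 CPM against 64.3, 56.7 and 81.8 CPM with cisplatin, a change of 1.10 (SE 0.26), or 0.95 without replicate 2. Mp, the collagen XV/XVIII of basement membranes, had 36.7, 89.4 and 37.8 CPM against 14.1, 19.0 and 16.9 CPM. Replicate 2 carried part of that difference: the change was 1.72 (SE 0.38) with it and 1.16 (SE 0.28) without it, and an antisense RNA overlaps the gene. CG9626, for which no role is given here, had 32.3, 37.7 and 29.0 CPM against 15.9, 20.4 and 15.2 CPM, a change of 0.94, or 0.84 without that library. The lipase Lip4 had 48.4, 68.5 and 61.0 CPM against 24.1, 30.1 and 23.2 CPM. Nlg1, a neuroligin of the neuromuscular synapse, had 13.9, 20.7 and 13.9 CPM against 8.04, 7.06 and 5.56 CPM. Each of these separated the groups, as the rule that named them required, with or without the library that held male transcripts. That was not so of the size of CG3213 and CatB, which met the same rule but had 246 and 75.3 CPM in replicate 2, at most 1.34 CPM in the other combination libraries and at most 0.364 CPM in cisplatin libraries. CG7763, BomS6 and osi complete the 12 higher genes with the smallest p, and their changes were 1.82, 1.97 and 0.78 with every library and 1.87, 1.51 and 0.63 without replicate 2.

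The metal-binding protein MtnA had 324, 301 and 322 CPM in the combination, against 230, 176 and 107 CPM with cisplatin, a change of 0.88, or 0.92 without replicate 2. It was the only one of 19 metallothionein and metal transport genes tested to lie above every cisplatin library, and 2 zinc transporters, ZnT77C and ZnT86D, lay below, beside 7.57% and 7.82% of all genes. Without replicate 2, 1 lay above and 5 below, beside 10.5% and 13.2%. Tsf1, the transferrin that carries iron in hemolymph, had 259, 251 and 238 CPM against 357, 396 and 499 CPM. The combination libraries were nearly equal and all below the cisplatin ones, and the change was -0.74 (SE 0.23), or -0.75 without replicate 2. The ferritin heavy chain Fer1HCH had 857, 802 and 818 CPM against 873, 846 and 823 CPM, ranges that overlapped.

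Among lower genes, the fed-state signal fit had the smallest p with every library. It is a small protein that the fat body of females releases after protein meals and that curbs feeding. fit (chromosome 3R, 21883924 to 21884454, minus strand) had 15.3, 9.22 and 11.7 CPM in the combination, against 190, 76.8 and 126 CPM with cisplatin. The highest combination library was well below the lowest cisplatin library. The log2 fold change was -3.44 (SE 0.63), with an edgeR adjusted p of 0.334, and -3.28 (SE 0.74) with an edgeR adjusted p of 1 without replicate 2. DESeq2 gave adjusted p-values of 4.21e-05 with that library and 0.00107 without it. An antisense RNA on the same strand and CG31465 on the other share exon sequence with fit, so reads may be divided among them. Untreated flies had 38.3, 70.1 and 62.5 CPM of fit and flies fed TiO2 alone 9.91, 69.1 and 37.6 CPM, so the cisplatin libraries were the highest of the 4 groups.

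Other hormones of the nutritional state were higher. Lst, limostatin, a peptide that restrains insulin release, had 67.7, 57.0 and 59.5 CPM in the combination against 45.6, 26.6 and 17.4 CPM with cisplatin. Ilp6, the insulin-like peptide of the fat body, had 28.0, 27.0 and 27.1 CPM against 11.3, 21.0 and 11.0 CPM. Both separated the groups, Lst with a change of 1.04 and Ilp6 with 0.92, and without replicate 2 these were 1.09 and 0.93. The adipokinetic hormone Akh, which mobilises stored fuel, had 1.70, 4.46 and 2.13 CPM against 1.41, 1.36 and 0.759 CPM. Of 26 fed-state and insulin genes tested, 5 lay above every cisplatin library and fit alone below, beside 7.57% and 7.82% of all genes. Without replicate 2, 7 lay above and 1 below, beside 10.5% and 13.2%. The brain insulin-like peptides Ilp2, Ilp3 and Ilp5 overlapped between groups, with changes of -0.01, 0.17 and 0.07 without replicate 2.

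Digestive enzymes were lower in the combination as a list. Of 48 tested out of 49, the fold change was below 0 for all but 6, the median log2 fold change was -0.57, and without replicate 2 it was below 0 for all but 4, with a median of -0.67. Of all genes tested 52.8% were below 0 and 47.2% above, and 48.8% and 51.2% without replicate 2. All 3 combination libraries were below all 3 cisplatin libraries for 13 of them and above for none, beside 7.82% and 7.57% of all genes. Without replicate 2 the counts were 22 below and 1 above, beside 13.2% and 10.5%. The summed level was 5809, 4748 and 5341 CPM in combination libraries, against 9923, 7789 and 7366 CPM in cisplatin libraries, so the lowest cisplatin library was above every combination library. At an unadjusted edgeR p under 0.05, 10 were lower and 1 higher both with and without replicate 2, and none passed the adjusted threshold. Of all genes tested, 1.01% were lower and 13.4% higher at that level, or 0.892% and 1.28% without replicate 2.

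The serine protease Jon65Aiv (chromosome 3L, 6039155 to 6040135, plus strand) had 370, 340 and 258 CPM against 915, 677 and 684 CPM, a change of -1.23 (SE 0.36), or -1.27 without replicate 2. Its neighbour Jon65Aiii had 191, 377 and 161 CPM against 621, 386 and 455 CPM. The ranges did not meet for either gene, although replicate 2 of the combination came close to a cisplatin library for Jon65Aiii. Jon65Aii, the third of the cluster, had 1.22, 42.9 and 7.62 CPM against 33.4, 18.6 and 35.0 CPM, apart from the cisplatin libraries only when replicate 2 was left out, when the change was -2.71 rather than -0.75. These genes are close copies of each other, so reads may be shared or lost between them. The lipase CG6295 had 68.0, 134 and 96.0 CPM against 184, 167 and 167 CPM, a change of -0.80 (SE 0.27), or -1.08 without replicate 2. The maltases Mal-A4 and Mal-A3 had 49.3, 68.6 and 49.1 CPM against 77.8, 114 and 83.6 CPM, and 34.2, 60.3 and 38.3 CPM against 58.8, 74.9 and 67.8 CPM, with no overlap except that Mal-A3 in replicate 2 lay above the lowest cisplatin library. Mal-B2, another maltase, was the exception, with 348, 89.0 and 442 CPM against 135, 90.1 and 72.2 CPM, so replicates 1 and 3 were above every cisplatin library and replicate 2 within their range. CG8560, a carboxypeptidase outside the list, had 12.2, 25.6 and 24.5 CPM against 67.5, 44.8 and 54.6 CPM, a change of -1.42 (SE 0.41), or -1.60 without replicate 2.

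**Figure D2:**
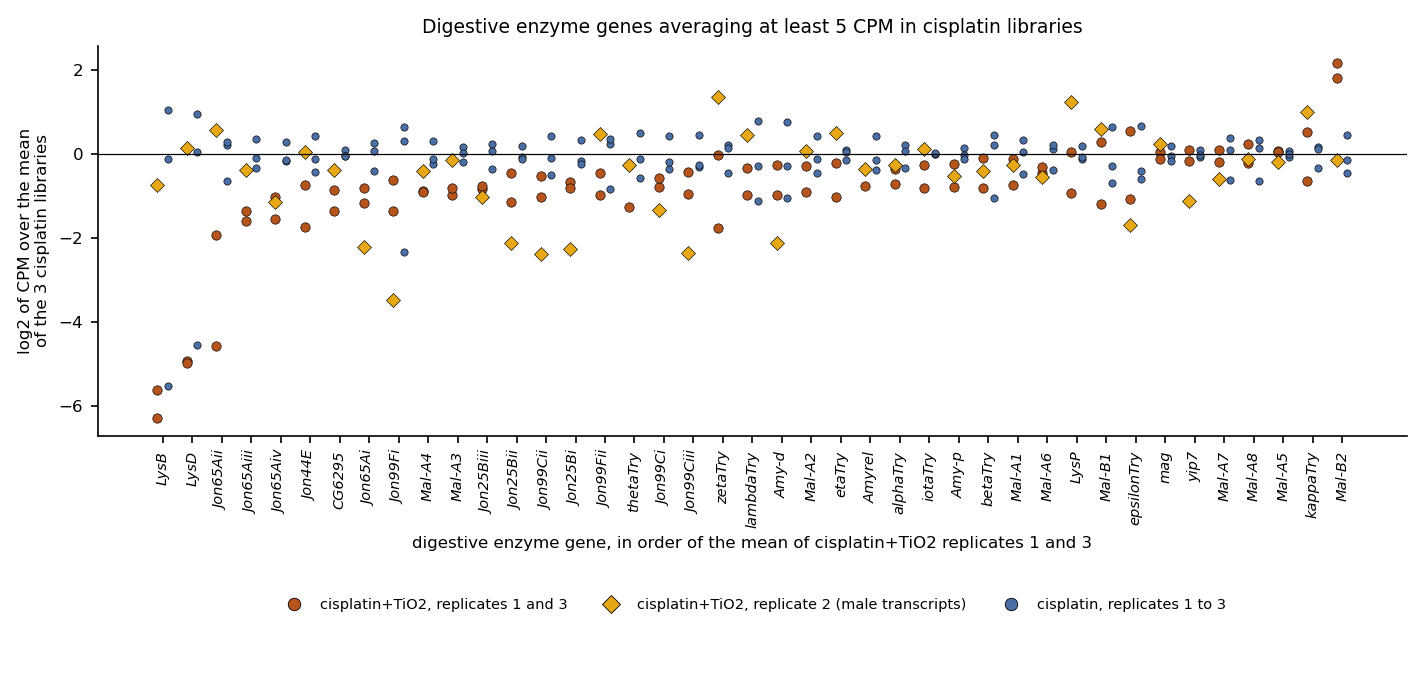
Level of each of 41 digestive enzyme genes averaging at least 5 CPM in the cisplatin libraries, as log2 of a library's CPM over the mean of the 3 cisplatin libraries; circles left of each tick are combination replicates 1 and 3, diamonds combination replicate 2, and the smaller circles to the right the cisplatin libraries. The mean of combination replicates 1 and 3 is below the cisplatin mean for 37 of the 41 genes and replicate 2 for 28, and for 12 all 3 combination libraries are below all 3 cisplatin libraries.

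A pair of genes for protein uptake was lower. Cubilin and amnionless proteins form an endocytic receptor that retrieves proteins from fluid, and in flies they work in nephrocytes, the cells that filter hemolymph, and in Malpighian tubules. Cubn2 (chromosome 3L, 11801951 to 11814755, minus strand) had 1.38, 3.58 and 1.44 CPM in the combination, against 9.23, 6.09 and 4.80 CPM with cisplatin. The library with male transcripts was the highest of the combination and still below the lowest cisplatin library. The change was -1.66 (SE 0.40) with an edgeR adjusted p of 0.334, and -2.25 (SE 0.31) with an edgeR adjusted p of 0.174 without replicate 2, where DESeq2 gave 8.12e-09.

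Its partner Amnionless (chromosome 2L, 287252 to 289144, minus strand) was measured on few reads, 17 in the 3 combination libraries together, against 161 in the 3 cisplatin libraries. Scaled to library size the ratio was 0.109, with a 95% exact Poisson interval of 0.0620 to 0.180 that covers counting error only. Without replicate 2 it was 4 reads against 161, a ratio of 0.0364 with an interval of 0.00979 to 0.0949. By library the levels were 0.0811, 0.394 and 0.0239 CPM against 1.73, 1.47 and 0.850 CPM, and the level in replicate 3 is under that of 3 reads. This gene had the smallest edgeR adjusted p of the comparison without replicate 2, 0.114, and an antisense RNA overlaps it. Cubn, the other cubilin, overlapped between groups, with 21.7, 34.6 and 23.6 CPM against 35.6, 29.8 and 31.9 CPM, although replicates 1 and 3 were below every cisplatin library. The remaining 4 of the 7 nephrocyte genes tested had no combination range outside the cisplatin range with every library. Thus 2 of the 7 lay below every cisplatin library and 0 above, beside 7.82% and 7.57% of all genes. Without replicate 2, 3 lay below and 1 above, beside 13.2% and 10.5%. Of the 7, 4 were higher and 3 lower, with a median of 0.03, and without replicate 2, 3 were higher and 4 lower, with a median of -0.11. The slit diaphragm protein sns was among the higher, with 1.46, 14.3 and 4.53 CPM against 2.36, 2.63 and 2.16 CPM, and its change was 0.33 without replicate 2, the highest of the 6 libraries.

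Several of the other lower genes had small differences. The trifunctional protein subunit Mtpbeta, which carries out the last steps of fatty acid oxidation in mitochondria, had 151, 142 and 147 CPM against 183, 180 and 195 CPM, a change of -0.34 (SE 0.11), or -0.32 without replicate 2. The mitochondrial hydroxyacyl-CoA dehydrogenase scu, named after its values were seen and not one of the 12 lower genes with the smallest p, had 140, 139 and 153 CPM against 191, 175 and 185 CPM. The gene hoip, a component of the spliceosome, had 153, 123 and 145 CPM against 219, 185 and 187 CPM, and the cyclophilin CG2852 had 488, 387 and 470 CPM against 754, 600 and 629 CPM. None of these ranges overlapped, which the rule that named Mtpbeta, hoip and CG2852 required. The difference was larger for the cytochrome P450 Cyp9b2, which had 54.9, 59.8 and 62.1 CPM against 85.4, 264 and 75.1 CPM. Its change was -1.26 (SE 0.41) with every library and -0.45 without cisplatin replicate 2, which alone was high. CG2604 and CG9098 complete the 12, with changes of -0.38 and -1.11, or -0.40 and -0.97 without combination replicate 2.

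Egg-building genes were lower on the median but varied widely between libraries. Follicle cells make the vitelline membrane and then the chorion around each egg, and the fat body and follicle cells make yolk proteins. All 7 vitelline membrane genes lay below every cisplatin library, with and without replicate 2, beside 7.82% and 13.2% of all genes. Their summed level was 2446, 2485 and 724 CPM in the combination, against 6491, 4450 and 4710 CPM with cisplatin, and their median log2 fold change was -1.59, or -1.65 without replicate 2. Chorion genes summed to 7406, 204 and 6067 CPM against 18584, 11085 and 17319 CPM. Replicate 2 was nearly without chorion RNA, and the other combination libraries were below every cisplatin library in the sum. For 8 of 11 chorion genes all combination libraries were below all cisplatin libraries, with and without replicate 2, beside the same shares of all genes, and the median was -1.78, or -1.29 without replicate 2. The 4 yolk genes summed to 17548, 11038 and 10823 CPM against 26131, 18247 and 25276 CPM, also without overlap, with a median of -0.79, or -0.68. No gene of these 3 lists had an unadjusted edgeR p under 0.05. The summed vitelline membrane level ranged from 283 to 5938 CPM in TiO2 libraries and from 1496 to 4906 CPM in control libraries, which enter the estimate of spread.

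The lists of DNA repair, cell cycle and ovarian germline genes moved with replicate 2. Of 37 DNA damage and repair genes tested, none had a fold change above 0 with every library (median -0.37), while 18 did without replicate 2 (median -0.01). Of 25 cell cycle genes none was above 0 with it (median -0.41) and 14 were without it (median 0.02). Among 20 ovarian germline genes the median was -0.32 with it and -0.08 without it. The apoptosis activator rpr was higher in each combination library, with 1.27, 12.6 and 3.69 CPM against 0.411, 0.194 and 0.334 CPM, a change of 4.20 (SE 1.23), or 2.96 (SE 1.12) without replicate 2, and the levels were low. Another activator, hid, overlapped, with 21.9, 28.3 and 25.8 CPM against 23.1, 16.6 and 20.3 CPM. Over the 16 apoptosis genes tested the median was 0.04, or 0.01.

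**Figure D3:**
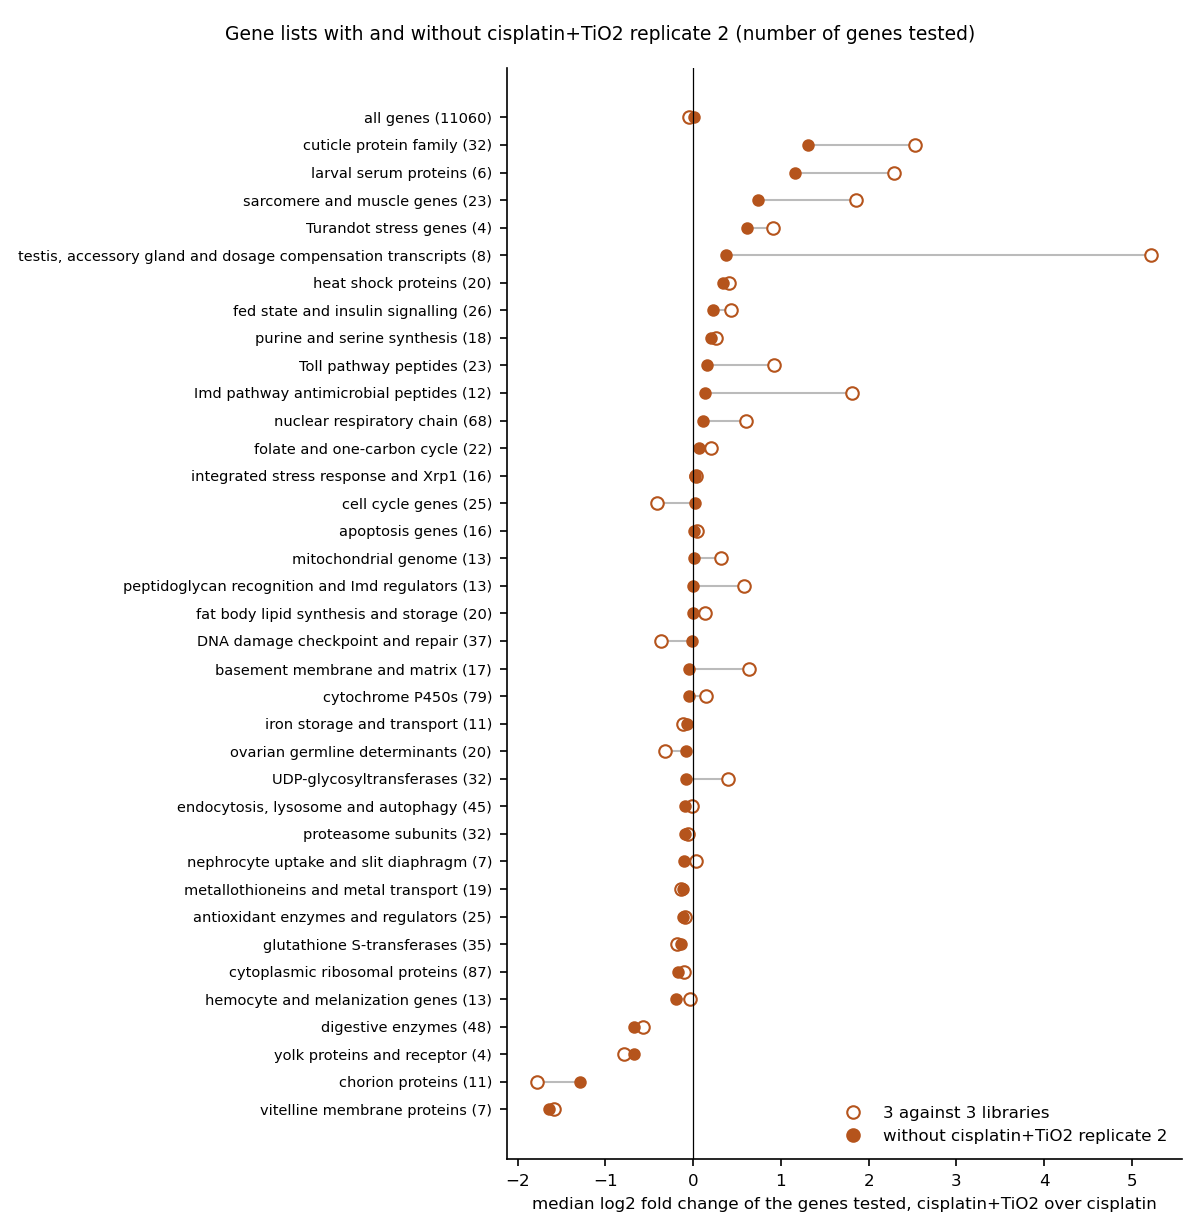
Median log2 fold change, combination over cisplatin, of the genes tested in each list (number in brackets, horizontal axis), with every library as open circles and without combination replicate 2 as filled circles. Digestive enzymes, yolk, chorion and vitelline membrane genes are below -0.5 both ways, whereas the DNA repair, cell cycle, Imd and Toll peptide and respiratory lists move towards 0 when replicate 2 is left out.

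Lists of muscle, cuticle and larval proteins were higher in the combination and also differed between its libraries. The 23 sarcomere genes summed to 6175, 65235 and 21274 CPM in combination replicates 1 to 3, against 5137, 9334 and 10700 CPM in the cisplatin libraries. Replicate 1 lay within the cisplatin range, replicate 3 above it and replicate 2 far above it. Their median change was 1.86 with every library and 0.74 without replicate 2. The Cpr cuticle family summed to 94.4, 4044 and 981 CPM against 111, 381 and 351 CPM, and the larval serum proteins to 73.8, 1786 and 779 CPM against 222, 559 and 310 CPM. In both, combination replicate 1 was the lowest of the 6 libraries. The median change of the cuticle list was 2.53 over 32 genes tested with every library and 1.31 over 33 without replicate 2, and that of the 6 larval serum genes was 2.29 and 1.16. Cuticle genes also divided the cisplatin group: Cpr49Ae, a cuticle protein, had 15.6, 1671 and 387 CPM in the combination and 17.5, 214 and 181 CPM with cisplatin, so replicate 1 was low in both groups. The number of genes of at least 5 CPM that lay 3-fold or more above or below both group mates was 7 and 275 for combination replicate 1, 585 and 641 for replicate 2 and 0 and 16 for replicate 3, against at most 14 and 12 for a cisplatin library. The part these differences between pools play in the other results was not tested.

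**Figure D4:**
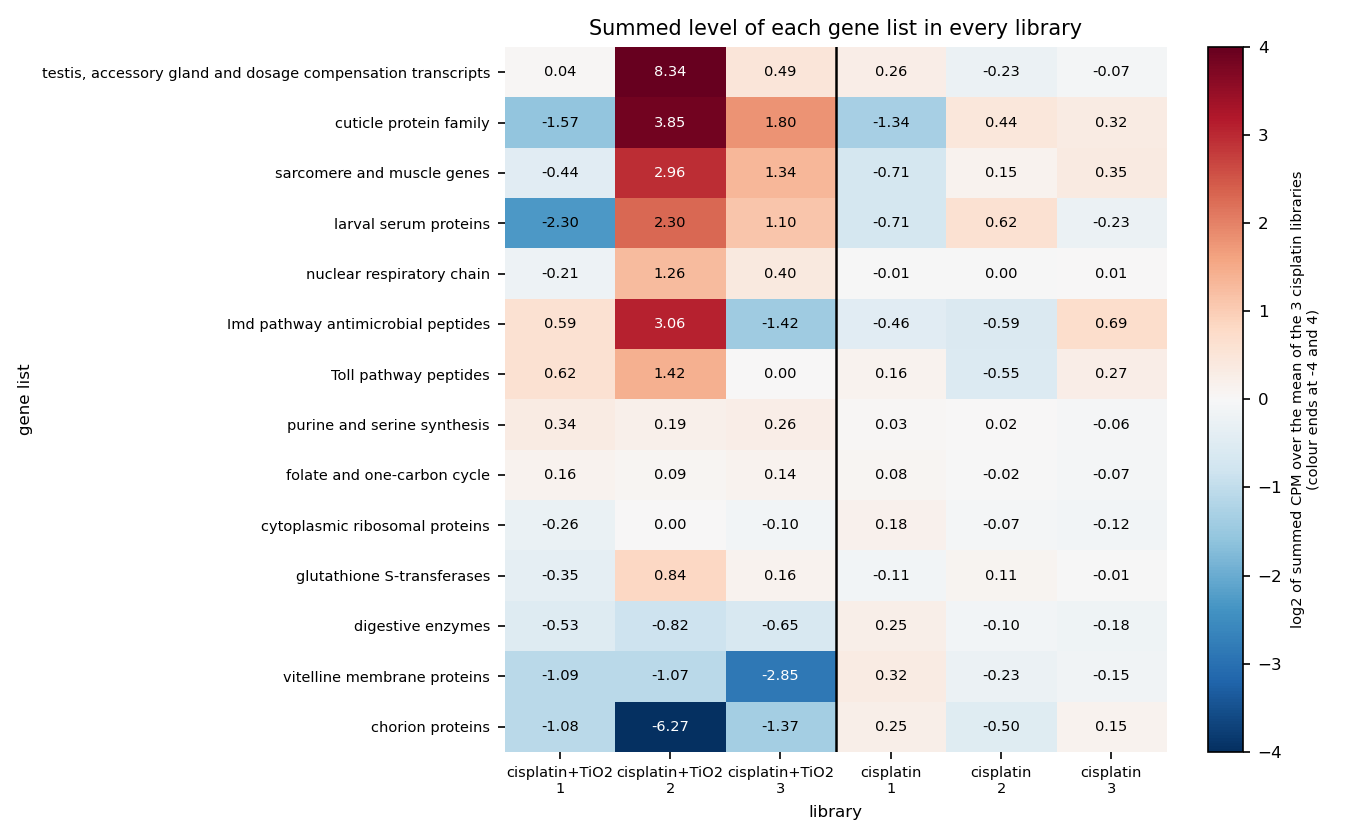
Summed CPM of 14 gene lists (rows) in each of the 6 libraries (columns), as log2 over the mean of the 3 cisplatin libraries, with the combination to the left of the line. Digestive enzyme, vitelline membrane and chorion sums are below 0 in all 3 combination libraries, and purine and folate sums above 0, while testis, cuticle, muscle and Imd peptide sums are highest in combination replicate 2.

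The medians of both immune peptide lists depended on combination replicate 2. The 12 antimicrobial peptides of the Imd pathway, which answers Gram-negative bacteria, summed to 73.3, 406 and 18.2 CPM in the combination against 35.2, 32.3 and 78.2 CPM with cisplatin. No member separated the groups, beside 7.57% of all genes above and 7.82% below, so few would be looked for in a list of 12. The median of the 12 was 1.81 with every library and 0.14 without replicate 2. Of 23 Toll pathway peptides, which answer fungi and Gram-positive bacteria, 6 lay above every cisplatin library and 1 below, beside 7.57% and 7.82% of all genes, and the counts without replicate 2 were again 6 and 1, beside 10.5% and 13.2%. The median over the list was 0.92, or 0.16 without replicate 2. Among those above with every library was the Bomanin BomS6, with 29.6, 72.4 and 39.0 CPM against 14.5, 8.08 and 13.5 CPM, and BomT2, with 14.9, 68.8 and 28.2 CPM against 7.37, 9.41 and 10.8 CPM. Bomanins are short genes of one cluster with similar sequences, so their reads may be shared. Drosomycin, Drs, the best known of these peptides, overlapped, with 88.5, 71.8 and 72.7 CPM against 76.3, 64.4 and 103 CPM.

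Stress and detoxification genes gave few clear differences. The heat shock genes stv, a co-chaperone of the BAG family, and Hsp68 were higher, with 87.0, 225 and 91.8 CPM against 40.9, 51.1 and 52.6 CPM, and with 159, 289 and 94.7 CPM against 61.6, 59.5 and 67.2 CPM. Both separated the groups, with changes of 1.48 and 1.53, or 0.89 and 1.01 without replicate 2. The constitutive chaperones Hsc70-4 and Hsp83 lay on the other side, with 4158, 4284 and 4109 CPM against 5470, 4702 and 4629 CPM and with 3809, 3704 and 3744 CPM against 4276, 4105 and 4147 CPM. Over the 20 heat shock genes tested the median was 0.41, or 0.34 without replicate 2. Of these, 3 lay above every cisplatin library and 2 below, beside 7.57% and 7.82% of all genes. Without replicate 2, 4 lay above and 4 below, beside 10.5% and 13.2%. Glutathione S-transferases, which attach glutathione to toxic compounds, had a median of -0.18 over 35 tested genes, or -0.14 without replicate 2, and 4 lay below every cisplatin library and 1 above, beside 7.82% and 7.57% of all genes. Without replicate 2, 7 lay below and 1 above, beside 13.2% and 10.5%. Among those below with every library, GstE6 had 111, 99.2 and 104 CPM against 163, 141 and 127 CPM, a change of -0.46 (SE 0.16), or -0.42. GstD2 showed the spread within groups, with 25.1, 12.5 and 7.21 CPM against 3.31, 82.6 and 3.22 CPM, the highest value in cisplatin replicate 2. The 79 cytochrome P450 genes tested had a median of 0.15, or -0.05 without replicate 2, the 32 UDP-glycosyltransferases 0.40, or -0.09, and the 25 antioxidant genes -0.09, or -0.12. Ribosomal protein genes had a median of -0.11 over 87 genes, or -0.17, and nuclear respiratory chain genes 0.60 over 68 genes, or 0.12.

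The effect of TiO2 in flies without cisplatin, from the 3 TiO2 and 3 control libraries, can be set beside these values because the pairs of groups share no library. No gene passed the edgeR test of the difference between the effects of TiO2 with and without cisplatin, with every library (0 of 11060, smallest adjusted p 0.129) or without combination replicate 2 (0 of 11100, smallest adjusted p 0.289). Before adjustment 3502 genes (31.7%) and 1911 genes (17.2%) had a p under 0.05. DESeq2 called 1611 and 151 genes for this difference.

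The effect had one direction in both settings for the digestive list as a median and for Cubn2, Amnionless and Tsf1. The digestive list had a median of -0.57 with cisplatin and -0.87 without it, where 43 of 48 genes were below 0. Cubn2 had 3.20, 3.35 and 3.02 CPM in flies fed TiO2 alone against 14.8, 15.2 and 12.3 CPM in untreated flies, a change of -2.14, beside -1.66 with cisplatin, or -2.25 without combination replicate 2, and the difference was 0.48, or -0.11 without it. Amnionless had 0.410, 0.553 and 0.559 CPM against 3.19, 3.82 and 2.86 CPM, a change of -2.69, beside -3.03, or -4.63 without replicate 2, and the difference was -0.34, or -1.93 without it. Tsf1 had 258, 281 and 223 CPM against 423, 825 and 631 CPM, a change of -1.30, beside -0.74. For these 3 genes the combination was the lowest or near the lowest of the 4 groups, and the 2 changes had the same sign. The 7 nephrocyte genes as a list had medians of 0.03 with cisplatin and -1.02 without it.

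Direction differed for most of the genes that were higher. Of the 12 higher genes with the smallest p, 10 had a negative TiO2 change without cisplatin, and of the 12 lower genes also 10, beside 53.9% of all genes tested. A negative sign was therefore not particular to the higher genes. These genes were chosen by their change with cisplatin, which also enters the difference between the effects, so the choice may enlarge the differences given for them. Nmdmc had 53.5, 57.8 and 59.3 CPM with TiO2 alone against 97.3, 71.1 and 71.3 CPM in untreated flies, a change of -0.49 beside 1.14, and the difference was 1.63 with an edgeR adjusted p of 0.129, or 1.52 without combination replicate 2. CG16758 had 111, 105 and 156 CPM against 207, 131 and 185 CPM, a change of -0.49 beside 0.88, and a difference of 1.37, or 1.31 without replicate 2. Egg-building genes had the opposite pattern, with a median for vitelline membrane genes of -1.59 with cisplatin and 0.49 without it, and for chorion genes of -1.78 and 1.23. The TiO2 and untreated libraries overlapped in both sums. Vitelline membrane sums were 283, 5938 and 5480 CPM with TiO2 alone against 4906, 2329 and 1496 CPM in untreated flies. Chorion sums were 2469, 10480 and 14718 CPM against 720, 10311 and 8798 CPM. Sarcomere genes had medians of 1.86 and -1.18, and cuticle genes of 2.53, or 1.31 without combination replicate 2, and -2.11. Their levels in the untreated libraries were uneven, with sarcomere sums of 53047, 34360 and 7385 CPM, and without combination replicate 2 the sarcomere median of the difference was 1.88 rather than 2.96 and the cuticle median 3.14 rather than 4.64.

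**Figure D5:**
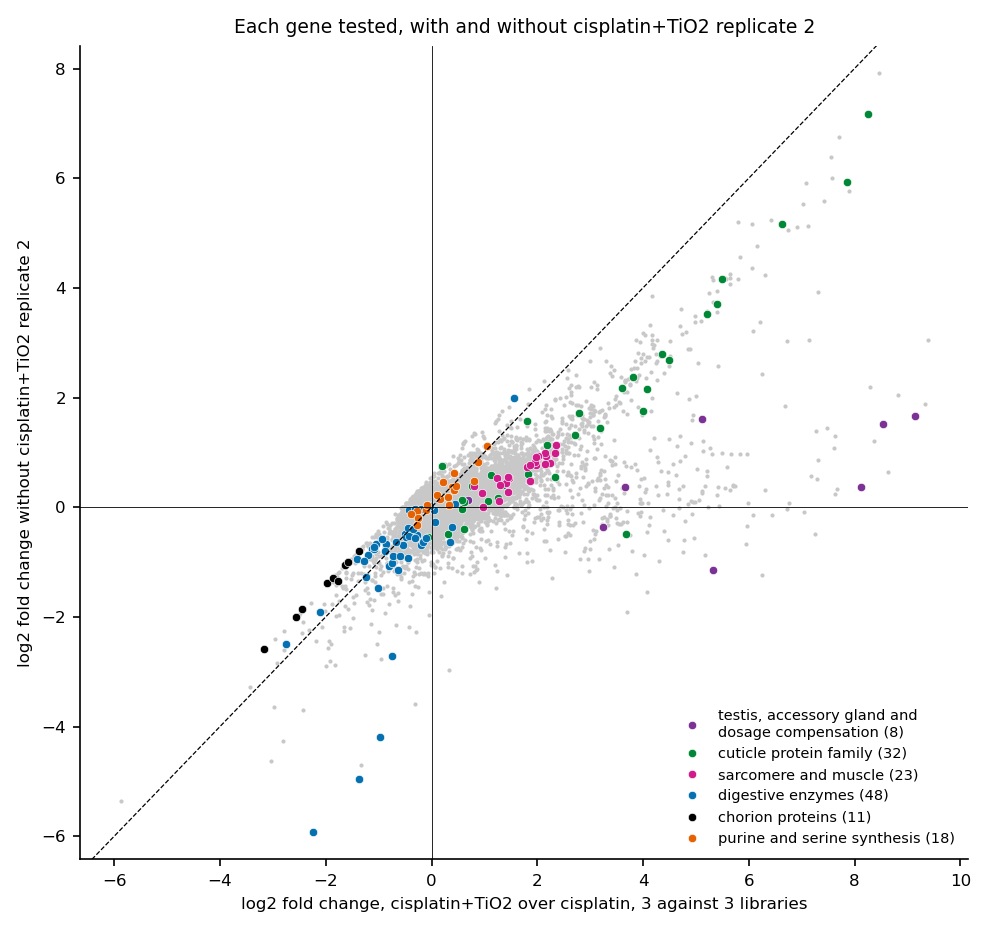
Log2 fold change, combination over cisplatin, of each gene tested with every library (horizontal axis) and without combination replicate 2 (vertical axis), with 6 gene lists in colour and the line of equal values dashed. Testis, accessory gland and dosage compensation genes lie far right of the line, muscle genes lie to the right of it and closer to 0 on the vertical axis, and purine and chorion genes lie near the line.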

How the data were processed

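Raw read counts per gene, deposited by the authors as one table, were used as they stand (17610 genes, 12 libraries, none pooled). Libraries were made with a stranded mRNA kit, per the labels' protocols. FastQC, Trimmomatic, BWA, SAMtools and HTSeq are named in the submitters' processing notes, without versions or roles; the genome build, the annotation and the strand setting of the counting are not given in the sources used here. Gene coordinates in the table were the same as in the BDGP6.54 annotation for 17589 genes, and names and exon overlaps were taken from there. Reads from overlapping genes may be lost or misassigned, and intervals cover counting error only.

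Samples were grouped by their labels. The 4 groups, 12 libraries in all, were fitted together in edgeR 4.0.16 (R 4.3.3) with filterByExpr, trimmed-mean scaling and the quasi-likelihood test, two-sided, with Benjamini-Hochberg adjustment over all genes tested and a threshold of 0.05. Levels are CPM, counts per 1000000 of the scaled library size, computed from the deposited counts. Log2 fold changes are combination minus cisplatin. The SE beside an edgeR change was derived from the test, as the absolute log2 fold change over the square root of the F statistic. DESeq2 1.42.0, limma 3.58.1 with sample weights, other scalings, filters, sample sets and left-out libraries were alternatives.

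Named genes are the 12 higher and 12 lower genes with the smallest p among those averaging 5 CPM or more whose group ranges did not overlap, 6 each way without combination replicate 2, and 2 per gene list. Other list members and genes called only by DESeq2 were named after their values were seen. Groups, members and the 37 lists were chosen with earlier results of these data known. Lists are described by counts and medians, with no set test. The authors' deposited comparison tables were not used.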

Additional observations from a re-analysis of the deposited data

Results flagged for a closer look

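Transcripts outside the genes tested showed which library went against the label of female flies. The 58 testis, accessory gland and dosage compensation genes that were too low in most libraries to be tested summed to 2806 CPM in combination replicate 2, against at most 3.83 CPM in the other combination libraries, 0.668 CPM in cisplatin libraries and 1.32 CPM in control libraries. Among them loopin-1, a testis aminopeptidase-like gene, had 396 CPM in that library and at most 0.647 CPM in the others, and Acp36DE, a seminal fluid protein, had 359 CPM. The 11 untested Y chromosome genes summed to 43.1 CPM there, against at most 0.0479 CPM in the other combination libraries and 0 reads in cisplatin, TiO2 and control libraries. In all, 1151 genes had at least 5 CPM in that library and under 1 CPM in each of the other 11, and 157 of these passed the filter and were tested. No other value met the criteria for a closer look, since groups of 3 libraries are too small for a test of outlying samples.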

How the results depend on the processing

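The count of 0 genes passing the edgeR test held with other scalings, without a filter, with the 2 groups alone, with the replicate number as a block and without any library of either group. DESeq2 called 36, or 7 without combination replicate 2, and voom with sample weights called 2618, with a weight of 0.0623 on combination replicate 2, 0.355 on replicate 1 and 6.48 on replicate 3, but 0 without replicate 2. Counts at an unadjusted p under 0.05, 1592 as reported, were 2418 without a filter, 747 with the 2 groups alone, 934 with the replicate block, 4438 with voom, and without combination replicate 2 were 348 with DESeq2, 370 with voom and 812 with the 2 groups alone. Leaving out 1 library of the 2 groups gave 241 to 3109, the highest without combination replicate 1, with 559 without cisplatin replicate 1, 853 without replicate 2 and 787 without replicate 3. Leaving out a control or TiO2 library, chosen after seeing the data, gave 1392 to 2024, and 0 genes passing. For the difference of TiO2 effects, 0 became 1611 with DESeq2 and 7963 with voom, or 151 and 5396 without combination replicate 2, and 0 to 2823 when a library was left out (2823 without combination replicate 1, 1752 without control replicate 3). The cause of these shifts was not tested.

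Upper-quartile scaling moved the median of all genes to 0.084. Of named genes, leaving out 1 library gave CG1092 -1.11 to 0.055 (0.016 without combination replicate 3), Tsf3 -0.11 to 1.27, TrxT -0.67 to 6.51 and COX4L -0.14 to 6.64. Thor turned to -0.0077 with voom, CecC to -0.44 and CecA2 to -1.31 with voom (-0.035 without replicate 2), and Rpn7 to 0.015 with upper-quartile scaling. TrxT was -0.12 with voom, and without replicate 2 was -0.67 with edgeR, -0.65 with DESeq2, -0.65 with voom and -0.65 with the 2 groups alone. Tsf3 without replicate 2 was -0.11 with edgeR, -0.080 with DESeq2, -0.049 with voom and -0.096 with the 2 groups alone, and COX4L was -0.36 with voom and without replicate 2 -0.14, -0.13 and -0.15 with edgeR, DESeq2 and voom. The other values of genes named by rule, and not after their values were seen, kept their sign. Of the genes named by rule, DESeq2 and voom called 15 and 70, beside 36 and 2618 of all 11060 genes tested. Most of the named genes were chosen by a small p in these same data, so these counts are not a separate check.

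Whether replicate numbers pair the libraries could not be settled with 3 libraries per group. Deviations from the group means correlated at -0.02 to 0.25 between same-numbered combination and cisplatin libraries. Over all groups the range was -0.74 to 0.47, with 6 of 18 pairs over 0.1. For 2 of the 3 combination libraries the highest correlation was with the same-numbered cisplatin library.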

Other observations

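The 13 genes of the mitochondrial genome had a median log2 fold change of 0.31 with every library and 0.01 without replicate 2. Only mt:ND2 and mt:ND4L lay above every cisplatin library, mt:ND2 narrowly (67.2 against 65.5 CPM), and none lay below. An exon of mt:ND4 overlaps mt:ND4L on the same strand. Of all genes 7.57% lay above and 7.82% below, or 10.5% and 13.2% without replicate 2. Basement membrane genes had a median of 0.64 over 17 genes and -0.04 without that library. Fat body lipid genes had a median of 0.14 over 20 genes and 0.00, although Lpin, the phosphatidate phosphatase lipin, had 191, 208 and 187 CPM in the combination against 142, 147 and 149 CPM with cisplatin. Endocytosis, lysosome and autophagy genes had a median of -0.01 over 45 genes and -0.09, proteasome subunits of -0.06 over 32 genes and -0.09, and iron genes of -0.12 over 11 genes and -0.07. Without that library 30 of the 32 proteasome genes and 11 of the 11 iron genes were below 0, beside 48.8% of all genes. Peptidoglycan recognition genes had a median of 0.58 over 13 genes and 0.00, and hemocyte and melanization genes of -0.03 over 13 genes and -0.20. The 4 Turandot stress genes tested out of 8 had a median of 0.91, or 0.61. No member separated the groups, beside 7.57% of all genes above and 7.82% below. Integrated stress response genes had a median of 0.03 over 16 genes, or 0.02, and Xrp1, a transcription factor of that response, had 318, 743 and 350 CPM against 253, 314 and 293 CPM.

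Libraries of the same group also differed in single genes. The lysozyme LysB had 1.11, 32.6 and 0.694 CPM in combination replicates 1 to 3, against 112, 50.2 and 1.18 CPM in cisplatin replicates 1 to 3. Its near copy LysD had 5.24, 175 and 5.08 CPM against 307, 165 and 6.86 CPM, so the same 3 of the 6 libraries were low in both genes. Cisplatin replicate 2 had 72.2 CPM of the glycosyltransferase Ugt37A3, against 9.21 and 5.71 CPM in its group mates and 2.67, 14.7 and 5.65 CPM in the combination. Fbp1, a receptor for larval serum proteins, had 8.92, 754 and 274 CPM in the combination against 13.6, 102 and 7.93 CPM with cisplatin.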
